A study of Mus musculus with 12 samples.

Results

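MHC class I molecules of the mouse were followed through the 9 genes that encode their chains: the classical heavy chains H2-K1 and H2-D1, the nonclassical heavy chains H2-Q4, H2-Q6, H2-Q7, H2-T22, H2-T23 and H2-M3, and B2m, the light chain that all of them share. They were chosen by name, with earlier results of these data known, and are 9 of the 27179 Entrez gene IDs in the count table. All 9 passed the filter on low counts, so none is missing from what follows. Poly(A) RNA was sequenced from MC38-idAdpgkG, a derivative of the C57BL/6 colon carcinoma line MC38 that carries a doxycycline-inducible Adpgk(R304M) neoantigen fused to turboGFP and made degradable by dTAG-13. Every culture, controls included, received 20 ng/mL mouse interferon-gamma (IFNg) for its whole 51 h. Control cells had nothing else, and in the doxycycline group 1 µg/mL doxycycline was present throughout. dTAG-13 cells had 1 µM dTAG-13 added after 48 h, for the final 3 h, and the combined group had both agents on that schedule. The labels name no group without IFNg, so the interferon effect itself was not measured.

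The 3 libraries of each of the 4 groups were technical replicates of a single treated sample, per the labels. SDs, standard errors (SE) and p-values here measure the spread between libraries of 1 culture, and every comparison is between cultures. Libraries held 22165538 to 32809573 counts. Within its group, control replicate 3 was lowest for H2-K1, H2-D1, H2-Q4, H2-Q6, H2-Q7, H2-T23 and H2-M3 and highest for B2m and H2-T22. For H2-T22 it lay close to control replicate 2, and control replicate 1 was further off. Results against control are also given without control replicate 3. That library was picked out from the values of these same members, so calls made without it are no separate evidence. The label of colon carcinoma was checked against 9 epithelial markers, whose summed level was 0.377 to 1.101 CPM (the count scaled to library size) in all 12 libraries, with Epcam and Cdx2 at 0 reads. The 7 mesenchymal markers, mostly Vim and Fn1, summed to 2557 to 2619 CPM in control, 2355 to 2381 with doxycycline, 1906 to 1927 with dTAG-13 and 1671 to 1724 in the combined group. Not all of them followed the sum with doxycycline, where 2 were called higher and 3 lower against control (33.5% of all genes were called). Mean levels of Pdgfra went from 157.4 to 189.8 CPM, of Zeb1 from 63.91 to 70.2 and of Twist1 from 58.83 to 62.56. Col1a1 had 24 reads over all libraries. The 5 leukocyte markers summed to at most 0.1 CPM in any library, and the 2 endothelial markers to 1.92 to 4.15 CPM. The part of such shifts in the results below was not tested, and in bulk RNA a change in the share of cells with a transcript and a change per cell cannot be told apart.

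A class I molecule is a polymorphic heavy chain folded with B2m around a short peptide, usually one cut by the proteasome, carried into the endoplasmic reticulum by the TAP transporter and loaded with the help of tapasin. H2-K1 and H2-D1 display such peptides widely to CD8 T cells, while the nonclassical chains have narrower or different ligands and are often read by innate-like receptors. IFNg raises class I transcription in part through Irf1, which binds an interferon response element in class I promoters, and the transactivator Nlrc5 acts with the RFX complex on an adjacent module that includes the X2 and Y boxes.

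The promoters below show what the members share in this respect and where they differ. Windows are printed 5′ to 3′ on the coding strand, from the RefSeq sequences for GRCm38.p6, with motif matches in capitals. H2-K1 stands for the classical genes, B2m for the light chain, H2-Q6 and H2-Q7 for a near-identical pair whose levels went opposite ways, and H2-T22 and H2-T23 for the T-region genes, called higher in 5 and in 4 of the 5 pairwise comparisons.
H2-K1: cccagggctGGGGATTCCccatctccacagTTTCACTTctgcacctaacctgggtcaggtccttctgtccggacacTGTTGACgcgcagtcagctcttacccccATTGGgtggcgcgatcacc
B2m: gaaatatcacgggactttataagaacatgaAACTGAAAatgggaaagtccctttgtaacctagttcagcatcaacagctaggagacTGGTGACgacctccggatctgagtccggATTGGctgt
H2-Q6: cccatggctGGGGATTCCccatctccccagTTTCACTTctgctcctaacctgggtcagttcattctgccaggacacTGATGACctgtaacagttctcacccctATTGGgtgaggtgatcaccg
H2-Q7: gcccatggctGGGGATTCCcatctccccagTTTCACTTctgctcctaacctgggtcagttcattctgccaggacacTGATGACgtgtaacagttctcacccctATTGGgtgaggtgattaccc
H2-T22: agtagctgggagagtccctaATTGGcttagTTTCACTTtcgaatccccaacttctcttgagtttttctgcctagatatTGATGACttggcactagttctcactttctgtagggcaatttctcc
H2-T23: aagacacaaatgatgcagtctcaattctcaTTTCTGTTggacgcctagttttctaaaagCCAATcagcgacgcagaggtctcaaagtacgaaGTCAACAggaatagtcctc

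The windows lie at chr17:34000345-34000467 (minus strand) for H2-K1, chr2:122147520-122147642 (plus strand) for B2m, chr17:35424668-35424790 (plus strand) for H2-Q6, chr17:35439012-35439134 (plus strand) for H2-Q7, chr17:36042841-36042963 (minus strand) for H2-T22 and chr17:36032702-36032812 (minus strand) for H2-T23. The 5 motifs were each searched on both strands in the 250 bases before each start site. AANNGAAA, the core of an interferon response element, occurred in 9 of 9 members and in 21.31% of all 32851 promoters in the RefSeq table. TTTCACTT, the form of that core usual in class I genes, whose reverse complement is a match to AANNGAAA, occurred in 7 members and in 1.36% of promoters. B2m and H2-T23 were the members without it. The enhancer A motif GGGGATTCC occurred in H2-K1, H2-D1, H2-Q6 and H2-Q7, and in 0.21% of promoters. The X2 box TGNTGAC and the Y box ATTGG each occurred in 9 members, against 11.69% and 33.85% of promoters. In the H2-T23 window the X2 and Y matches were both on the opposite strand, at -19 to -13 and at -52 to -48 from the start site. The Y match printed for H2-T22, at -201 to -197, lies before its interferon response element core at -191 to -184. Its Y matches at -88 to -84 and -63 to -59 fall outside the window. The order and spacing of the matches were not tested. TTTCACTT is by definition the class I form, and the windows of several heavy chains resemble each other. The counts of matches therefore describe the members and are not a test. Over 122 aligned bases the H2-Q6 and H2-Q7 windows matched at 119 (97.5%), and those of H2-K1 and H2-D1 matched at 108 of 123 (87.8%). H2-K1 has 2 promoter entries in the table, of which 1 is shown.

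All heavy chains lie on chromosome 17 and B2m on chromosome 2. By the RefSeq annotation of GRCm38.p6, H2-K1 (Entrez 14972) spans chr17:33996012-34000619 on the minus strand, H2-D1 (14964) chr17:35263094-35267497 on the plus strand, and B2m (12010) chr2:122147687-122153082 on the plus strand. The Q genes follow one another on the plus strand, with H2-Q4 (15015) at chr17:35379617-35384674, H2-Q6 (110557) at chr17:35424850-35430055 and H2-Q7 (15018) at chr17:35439140-35443773. On the minus strand are H2-T23 (15040) at chr17:36029977-36032701 and H2-T22 (15039) at chr17:36037128-36042742, while H2-M3 (14991) lies on the plus strand at chr17:37270234-37274485. All 9 are annotated as protein-coding.

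In control cells B2m was by far the most abundant member per unit length, at 2862 ± 156.5 CPM per kb of exon (mean ± SD, n = 3). It ranked 5 among 11745 tested genes that had a length. H2-D1 followed at 517.8 ± 27.8 and H2-K1 at 492.4 ± 28.2 CPM per kb, levels whose SDs overlap. H2-Q4 was at 182.8 ± 5.48, H2-Q6 at 128.9 ± 8.25, H2-Q7 at 78.5 ± 2.24, H2-T22 at 36.1 ± 0.546 and H2-M3 at 18.3 ± 1.31 CPM per kb, each apart from its neighbours by more than their SDs. H2-T23 was lowest at 1.17 ± 0.103 CPM per kb and ranked 9653. With the length of the longest protein-coding transcript in place of all exons, H2-K1 (893.5 CPM per kb) came before H2-D1 (635.3) and H2-Q7 (219.9) before H2-Q6 (128.9), so the order within those pairs depends on the length used. The other members kept their place.

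**Figure D1:**
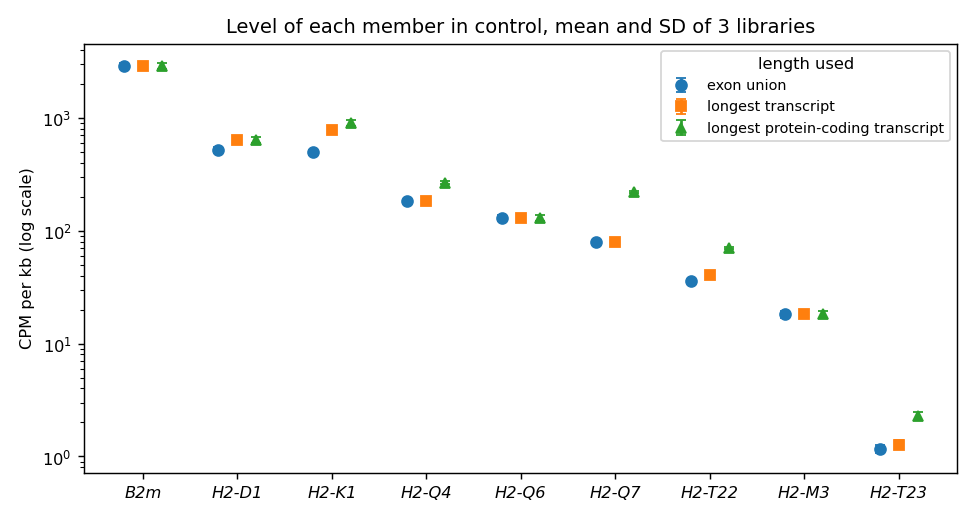
Level of each member in control cells as CPM per kb on a log axis, for 3 definitions of gene length. Symbols are means of 3 libraries and bars are SDs, which are mostly smaller than the symbols. B2m sits at 2862 and H2-T23 at 1.17 CPM per kb of exon, and H2-Q7 moves most with the length used.

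Similar heavy chains can exchange reads, and how reads that fit several places were counted is not given in the sources used here. The transcripts of H2-K1 and H2-D1 were identical at 90.7% of aligned bases and those of H2-Q6 and H2-Q7 at 88.6%, while H2-T22 and H2-M3 were the least alike pair at 64.9%. A stretch of 100 bases found also in another gene's transcript made up 16.4% of the windows of H2-Q7, 14.2% of H2-T22, 10.8% of H2-Q6, 7.3% of H2-T23, 4.6% of H2-D1 and 2.7% of H2-Q4. H2-K1, H2-M3 and B2m had none at that length. Most of the shared windows of H2-Q7 were in H2-Q6 (11.7% of its windows) and most of those of H2-T22 were in H2-T10 (9.8%). With stretches of 50 bases the shares rose to 44.7% for H2-T22, 34.9% for H2-Q7, 32.0% for H2-Q6, 28.8% for H2-T23, 24.3% for H2-Q4, 14.3% for H2-D1 and 8.8% for H2-K1, of which H2-D1 held 6.9%. H2-M3 then shared 0.6% and B2m none.

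Differences between treatments are given as log2 fold changes from edgeR's quasi-likelihood test on all 12910 genes that passed the filter, and a gene was called at a Benjamini-Hochberg adjusted p under 0.05. With doxycycline, 8 of the 9 members were called against control, 5 higher and 3 lower. Over all genes 33.5% were called, 14.8% higher and 18.7% lower. Across settings this comparison called 7 to 9 members, with 9 when no filter was applied (21.7% of the 19206 genes then tested). Leaving out single libraries gave 6 to 8 (26.6% to 34.0% of all genes). The median log2 fold change of the members was 0.06 against -0.01 over all genes. For dTAG-13 against control, 4 members were called higher and 1 lower, which is 5 of 9, where 62.1% of all genes were called, 30% higher and 32.1% lower. dTAG-13 added to doxycycline called 4 members higher and 1 lower against doxycycline alone, where 64.1% of all genes were called, 30.7% higher and 33.4% lower. In the fit used throughout, the share of members called in these comparisons with dTAG-13 did not exceed that of all genes. Other settings with all libraries kept gave more calls. For dTAG-13 against control, 7 members were called with scaling by library size only (64.8% of all genes). The length and GC correction also called 7, where 2779 of 11745 genes were called higher and 3909 lower. Without a filter, 7 were called for the combined group against doxycycline (42.7% of the 19206 genes then tested, which include those with few reads). With only the groups compared, 7 were also called, where 4066 of 12620 genes were called higher and 4185 lower. Between the combined group and dTAG-13 alone, 4 members were called higher and 1 lower, where 20.4% of all genes were called, 10.7% higher and 9.64% lower. Against control, the combined group had 5 members called higher and 1 lower, where 66.3% of all genes were called, 32.5% higher and 33.8% lower. Without control replicate 3, all 9 members were called both for dTAG-13 and for the combined group against control. There 58.1% and 62.8% of all genes were called. The reading of the dTAG-13 count thus depends on that library and on the settings. With scaling by library size only, or without doxycycline replicate 3 or any single library of the dTAG-13 group or replicates 1 or 2 of the combined group, 3 members were called between the combined group and dTAG-13 (23.7% of all genes with library size only). The comparisons share their control or treated libraries and are not independent of each other.

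**Figure D2:**
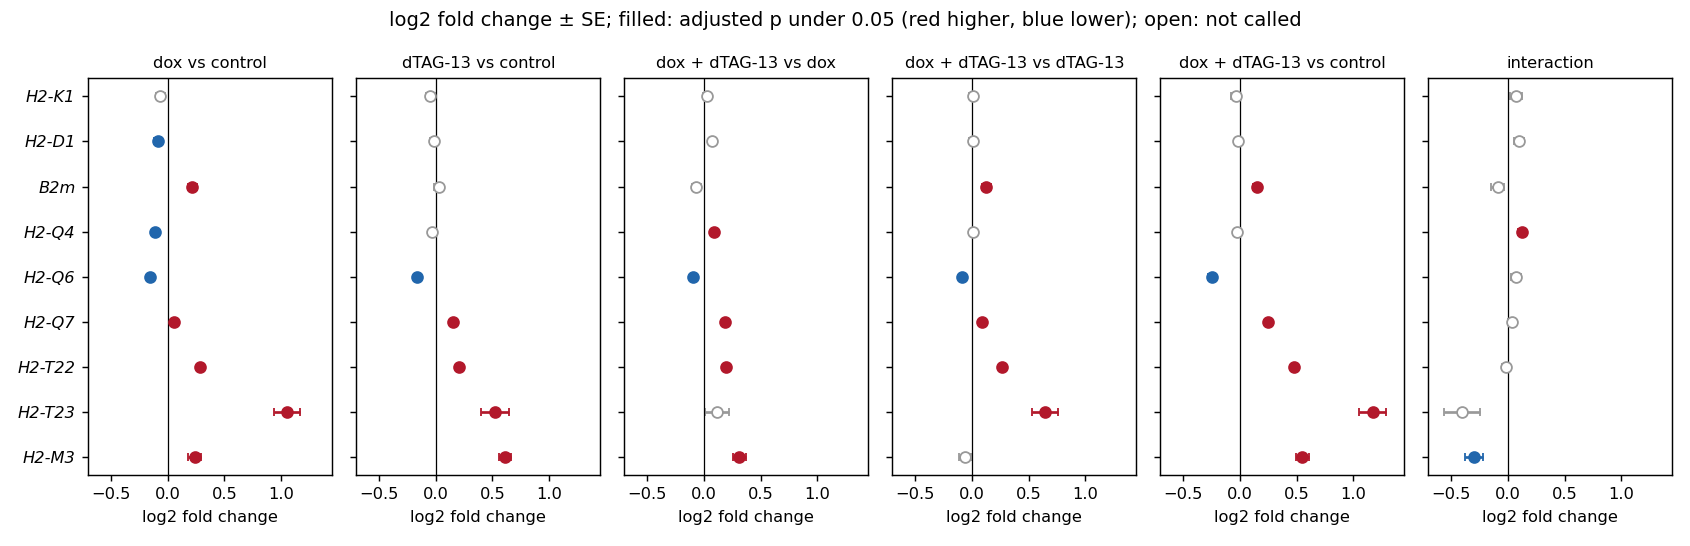
Log2 fold change of each member in the 5 comparisons and the interaction, with bars for the SE. Filled points were called at an adjusted p under 0.05, red for higher and blue for lower. H2-Q6 is called lower in all 5 comparisons and H2-Q7 and H2-T22 higher in all 5, while H2-K1 is called in none.

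H2-K1, the classical K heavy chain, was at a high and nearly level abundance. Its 3 libraries held 1504, 1484 and 1352 CPM in control, 1386, 1356 and 1408 with doxycycline, 1410, 1402 and 1392 with dTAG-13, and 1428, 1362 and 1440 in the combined group. All treated libraries fell within the range of the control libraries. The log2 fold change against control was -0.06 with doxycycline (SE 0.0371, edgeR adjusted p 0.226), -0.05 with dTAG-13 (adjusted p 0.314) and -0.04 with both (adjusted p 0.411). Without control replicate 3 these became -0.115, -0.099 and -0.089 and all passed the test, as lower. Leaving out any other single library gave none of these calls. H2-K1 was also called lower with doxycycline when no filter was applied (-0.055), and with dTAG-13 (-0.11) and both agents (-0.129) after correcting for GC content and transcript length.

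H2-D1 encodes the classical D heavy chain, which presents the Adpgk neoepitope in C57BL/6 cells. It was at 1385, 1368 and 1253 CPM in control and at 1266, 1228 and 1275 CPM with doxycycline. With dTAG-13 it was at 1331, 1306 and 1316 CPM, and in the combined group at 1348, 1290 and 1333 CPM. The doxycycline libraries were the lowest group but overlapped control through control replicate 3. H2-D1 fell by 0.088 on the log2 scale with doxycycline (SE 0.0315, edgeR adjusted p 0.0472), a call that was lost under 3 other settings and on leaving out any of 8 single libraries. Without control replicate 3 the value was -0.135, past the threshold. The combined group was 0.075 above doxycycline alone at an adjusted p of 0.052, just short of a call, with no overlap between those libraries, and was called under 7 other settings. H2-D1 with dTAG-13 alone differed from control by -0.019 (adjusted p 0.624), or by -0.07 and called without control replicate 3. The combined group differed from control by -0.013 (adjusted p 0.744), or by -0.062 and called without that library.

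B2m, the invariant light chain, moved the other way from H2-D1 with doxycycline. Its libraries held 2366, 2402 and 2615 CPM in control, 2843, 2924 and 2817 with doxycycline, 2480, 2508 and 2522 with dTAG-13, and 2720, 2836 and 2651 in the combined group. Both groups with doxycycline lay above every control and dTAG-13 library, while the dTAG-13 libraries lay inside the control range. B2m rose 1.16-fold with doxycycline, or 0.217 on the log2 scale with an SE of 0.038 (edgeR adjusted p 0.0019), and by 0.152 in the combined group against control (adjusted p 0.00606). The combined group was 0.128 above dTAG-13 alone (adjusted p 0.0454), a call lost under 2 settings and without any of 6 single libraries. With dTAG-13 alone the value was 0.025 (adjusted p 0.612).

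The B2m values with dTAG-13 depend on how transcript length and GC content are treated. B2m has a short transcript of 860 bases. After a correction for both, dTAG-13 against control became -0.478 and the combined group against control became -0.467, both called lower, the combined group against doxycycline became -0.667, and the combined group against dTAG-13 became 0.011 (adjusted p 0.915). The rise with doxycycline kept its call and direction under every setting and without any single library. With scaling by library size only, dTAG-13 against control was 0.116 and called higher, and without control replicate 3 it was 0.063 and called. The combined group against doxycycline, at -0.065 (edgeR adjusted p 0.17), was also called lower without a filter, with only the groups compared, and without control replicate 3 (-0.067). B2m lies inside the annotated span of Patl2, which held 17 reads over all libraries.

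**Figure D3:**
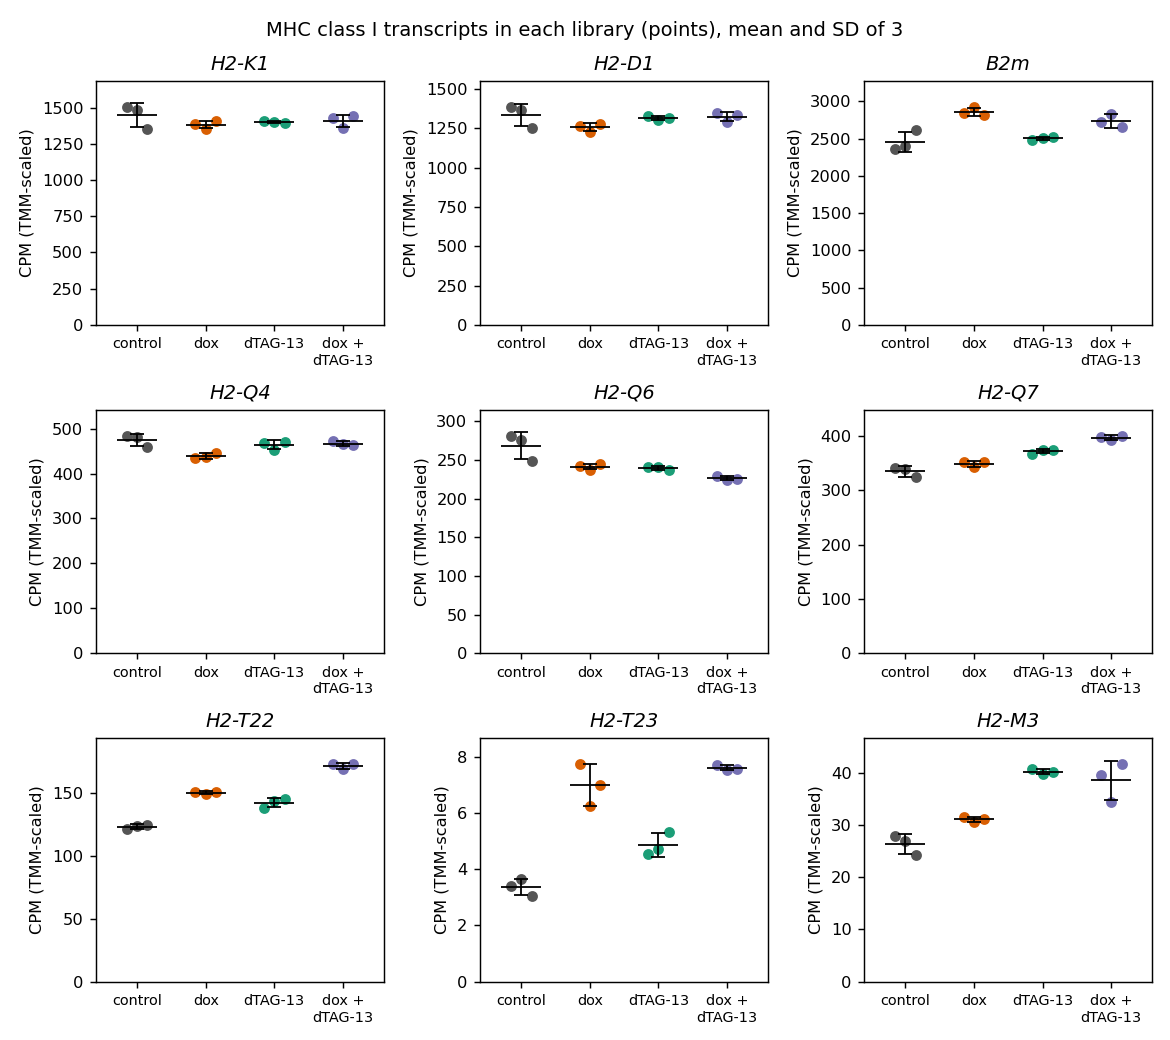
CPM of each member in the 3 libraries of each group (points), with the group mean and SD (bars), on linear axes that start at 0. The 4 groups of H2-T22 and of H2-Q7 are separate from each other, those of H2-K1 overlap throughout, and control replicate 3, the right-hand grey point, lies apart in B2m and H2-D1.

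The Q-region genes encode Qa-2 and related chains, of which several can be held in the membrane by a lipid anchor or secreted. The 3 measured members did not move together. H2-Q4 was at 484.4, 481.3 and 458.3 CPM in control, 435.5, 436.1 and 446.0 with doxycycline, 468.3, 452.8 and 470.9 with dTAG-13, and 472.0, 465.0 and 463.4 in the combined group. Its doxycycline libraries were below all others. H2-Q4 fell by 0.112 on the log2 scale with doxycycline (SE 0.023, edgeR adjusted p 0.000129) and was 0.088 higher in the combined group than with doxycycline alone (adjusted p 0.000916). With dTAG-13 alone its difference from control was -0.033 (adjusted p 0.21), which became 0.059 and called with scaling by library size only and -0.065 and called without control replicate 3. The combined group was at -0.024 (adjusted p 0.35), or -0.054 and called without that library. An antisense gene, Gm11131, covers 19.106% of the exon bases of H2-Q4, and the strand setting of the counting is not given in the sources used here.

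H2-Q6 was highest in control and lowest in the combined group. Its libraries held 281.5, 275.4 and 249.2 CPM in control, 242.3, 237.6 and 244.4 with doxycycline, 241.1, 241.5 and 237.1 with dTAG-13, and 229.2, 224.5 and 225.3 in the combined group. Control lay above the other 3 groups, the single-agent groups overlapped each other, and the combined group lay below them. Relative to control, H2-Q6 was lower on the log2 scale with doxycycline, at -0.155 with an SE of 0.030 (edgeR adjusted p 0.000132), with dTAG-13 at -0.164 (adjusted p 1.97e-05) and with both at -0.248 (adjusted p 1.75e-08). The combined group was lower than doxycycline alone by a log2 change of -0.093 (adjusted p 0.0086), which lost its call with scaling by library size only (-0.072) and was -0.148 after the length and GC correction. That scaling also reduced the dTAG-13 value to -0.073, still called. The difference from dTAG-13 alone, -0.084 (adjusted p 0.0485), lost its call under 3 settings and without any of 10 single libraries.

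H2-Q7 showed the opposite order from H2-Q6. It was at 341.4, 339.2 and 323.9 CPM in control, 352.8, 342.6 and 351.4 with doxycycline, 367.7, 374.1 and 374.8 with dTAG-13, and 398.0, 392.9 and 400.9 in the combined group, with no overlap between any of the groups. H2-Q7 rose by 0.152 with dTAG-13 (SE 0.023, edgeR adjusted p 2.95e-07) and by 0.246, or 1.19-fold, with both agents (adjusted p 2.52e-12). Against doxycycline alone the combined group was 0.187 higher (adjusted p 2.99e-09), and against dTAG-13 alone 0.094 higher (adjusted p 0.00239). The latter lost its call with scaling by library size only (0.06), while the length and GC correction raised the dTAG-13 value to 0.272, the value against doxycycline to 0.335 and that against control to 0.391. The doxycycline effect was the smallest, at 0.059 (adjusted p 0.045), and lost its call under 3 settings, one of them the replicate block (adjusted p 0.0618), and without any of 6 single libraries, with a value of 0.032 without control replicate 3.

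The ratio of H2-Q7 to H2-Q6 reads separated all 4 groups. It was 1.25 ± 0.0459 in control, 1.44 ± 0.00958 with doxycycline, 1.55 ± 0.0279 with dTAG-13 and 1.76 ± 0.0217 in the combined group (mean ± SD, n = 3 each). This ratio does not depend on library scaling, and no library of 1 group reached the range of another. These transcripts share long stretches (11.7% of the 100-base windows of H2-Q7 occur in H2-Q6), so exchange of reads between them can lower or raise the level of either, and its part in the ratio was not tested. By comparison the ratio of H2-K1 to H2-D1 reads was 1.083 in control, 1.101 with doxycycline, 1.064 with dTAG-13 and 1.065 in the combined group.

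H2-T22, a ligand of certain gamma-delta T cell receptors, was higher in every treated group. It was at 121.1, 124.1 and 124.5 CPM in control, 150.9, 148.9 and 150.5 with doxycycline, 138.0, 143.8 and 145.2 with dTAG-13, and 172.6, 169.0 and 172.9 in the combined group. The groups did not overlap, and the combined group was the highest. H2-T22 rose 1.22-fold with doxycycline (log2 0.285, SE 0.027, edgeR adjusted p 3.75e-11), 1.16-fold with dTAG-13 (log2 0.208, adjusted p 1.31e-08) and 1.39-fold with both (log2 0.477, adjusted p 6.9e-19). The combined group was also above doxycycline alone (0.193, adjusted p 4.43e-08) and dTAG-13 alone (0.269, adjusted p 1.99e-10). These 5 calls held under all settings tried and without any single library. The noncoding gene A930015D03Rik, with 462 reads over all libraries against 51278 for H2-T22, covers 29.379% of its exon bases on the opposite strand.

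H2-T10, the gene that shares the most sequence with H2-T22, was called in the same direction in the same 5 comparisons. Its level was 13.9 CPM in control, 17.9 with doxycycline, 18.8 with dTAG-13 and 22.8 in the combined group, and its log2 fold changes against control were 0.371, 0.444 and 0.715 (edgeR adjusted p 0.000103, 1.47e-06 and 2.45e-11). The values of these genes cannot be taken as independent, since their reads may be exchanged.

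H2-T23, which encodes Qa-1, the chain that displays leader peptides of other class I chains to the CD94 and NKG2A receptor, had the fewest reads of the 9. It had 109, 113 and 86 reads in the control libraries, 239, 187 and 203 with doxycycline, 141, 147 and 155 with dTAG-13, and 173, 192 and 237 in the combined group. As CPM these were 3.42, 3.64 and 3.05, then 7.74, 6.24 and 7.01, then 4.53, 4.73 and 5.34, and 7.71, 7.54 and 7.56. Control was lowest, dTAG-13 came next, and the combined libraries lay within the range of the doxycycline libraries. H2-T23 rose 2.07-fold with doxycycline (edgeR adjusted p 2.01e-09), 1.44-fold with dTAG-13 (adjusted p 0.000328) and 2.25-fold with both (adjusted p 1.67e-11). The combined group was 1.56-fold above dTAG-13 alone (adjusted p 2.28e-05), while its log2 difference of 0.12 from doxycycline alone did not pass the test (adjusted p 0.329). The whole H2-T23 span of 2725 bases lies inside that of A930015D03Rik, but their exons do not overlap in GENCODE M21. How reads that fall in both genes were counted is not given in the sources used here.

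H2-M3 presents N-formylated peptides of bacterial or mitochondrial origin. In the fit used throughout, it had the largest log2 fold change of the members with dTAG-13 against control. H2-T23 came next at 0.524 (SE 0.124). Across the other settings H2-M3 ran from 0.438 to 0.702 and H2-T23 from 0.522 to 0.615, so their order depends on the setting. H2-M3 was at 27.8, 26.9 and 24.2 CPM in control, 31.5, 30.6 and 31.1 with doxycycline, 40.7, 39.7 and 40.2 with dTAG-13, and 39.5, 34.3 and 41.6 in the combined group. Both groups with dTAG-13 lay above both without it, and the dTAG-13 libraries lay inside the range of the combined group. H2-M3 rose 1.53-fold with dTAG-13 (log2 0.61, SE 0.056, edgeR adjusted p 4.13e-12), 1.18-fold with doxycycline (log2 0.238, adjusted p 0.0013) and 1.46-fold with both (log2 0.551, adjusted p 7.82e-11). Combined against doxycycline alone gave 0.313 (adjusted p 7.32e-06), which was 0.066 and lost its call after the length and GC correction, as the value of both agents against control became 0.322 and kept its call. Against dTAG-13 alone it was -0.06 (adjusted p 0.497).

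Whether the dTAG-13 effect differed with doxycycline was tested as an interaction, which subtracts the effect seen without doxycycline from that seen with it. Of all genes 22.9% were called, 13.2% higher and 9.64% lower, and 2 of the 9 members. H2-Q4 had a positive interaction of 0.121 (edgeR adjusted p 0.00503), which was 0.05 and not called with scaling by library size only. H2-M3 had a negative interaction of -0.297 (SE 0.080, adjusted p 0.00547). For H2-T23 the value was -0.404 (SE 0.162), with a wide error and not called (adjusted p 0.0675), though it was called with scaling by library size only (-0.475) and without doxycycline replicate 2 (-0.49). H2-T22 had an interaction of -0.015 (adjusted p 0.825). Without control replicate 3, H2-K1 (0.125), H2-D1 (0.144), H2-Q6 (0.127) and B2m (-0.13) were called as well, for 6 members in all, where 23.2% of all genes were called.

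The pool of heavy-chain transcripts was summed in each library. The 8 heavy chains summed to 4013 ± 196.5 CPM in control, 3858 ± 65.2 with doxycycline, 3983 ± 18.3 with dTAG-13 and 4042 ± 83.5 in the combined group (mean ± SD, n = 3). The log2 ratios of the group means to control were -0.057, -0.011 and 0.01, each smaller than an SD of 0.071 to 0.077. SDs of ratios here are those of a ratio between single libraries, wider than the error of a ratio of means. A value below its SD therefore does not show that the pool was unchanged. Much of the SD against control came from control replicate 3. Without it the ratios were -0.097, -0.051 and -0.03, with SDs of 0.027, 0.013 and 0.032, so the values for doxycycline and for dTAG-13 were larger than their SDs. The combined group against doxycycline was at 0.067 (SD 0.038), also above its SD, and against dTAG-13 at 0.021 (SD 0.031). In composition, H2-K1 and H2-D1 made up 69.3 ± 0.473% of heavy-chain reads in control and 67.6 ± 0.360% in the combined group, with 68.4% and 68.3% for doxycycline and dTAG-13 alone. H2-T22 went from 3.08% to 4.24% of those reads and H2-Q6 from 6.69% to 5.60%. B2m over the summed heavy chains was 0.615 ± 0.0654 in control, 0.742 ± 0.0272 with doxycycline, 0.629 ± 0.00762 with dTAG-13 and 0.677 ± 0.0367 in the combined group. Control replicate 3, at 0.691, overlapped the combined group in that ratio.

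**Figure D4:**
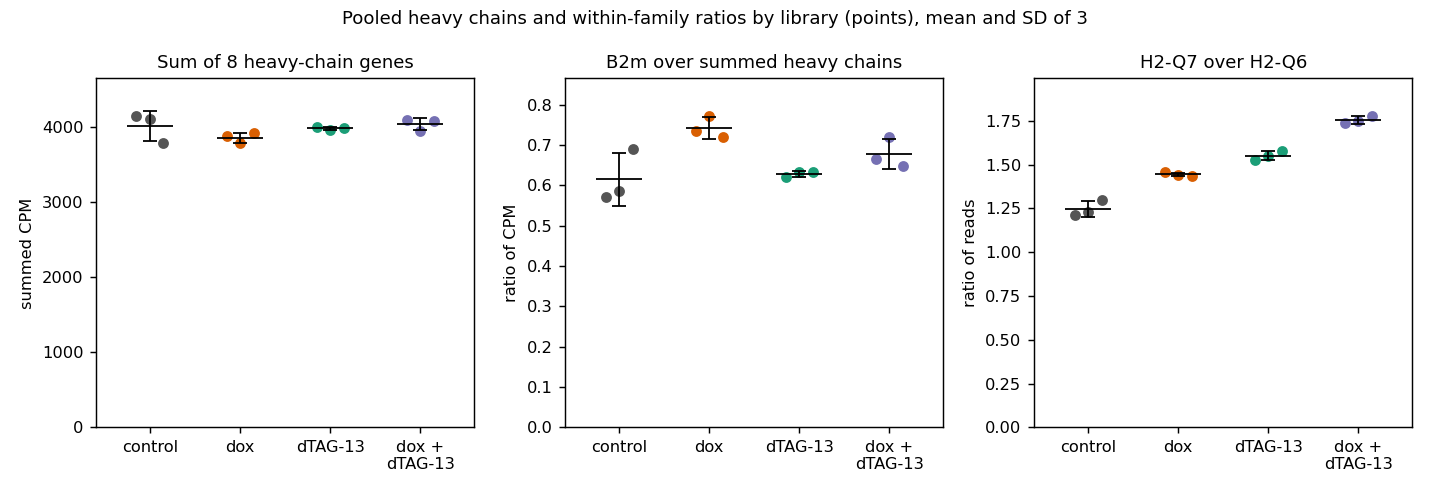
Summed CPM of the 8 heavy chains, the ratio of B2m to that sum in CPM, and the ratio of H2-Q7 to H2-Q6 reads, in the 3 libraries of each group (points) with mean and SD (bars). The sums stay between 3786 and 4148 CPM, while the H2-Q7 to H2-Q6 ratio runs from 1.25 in control to 1.76 in the combined group without overlap.

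The rest of the class I pathway was read from 20 genes of peptide supply, peptide loading and class I transcription, all of which passed the filter. With doxycycline 9 were called higher and 3 lower (33.5% of all genes were called), with a median log2 fold change of 0.07, and among the higher genes was Tapbpl, the tapasin-like editor TAPBPR (0.275, edgeR adjusted p 1.11e-05). With dTAG-13, 8 were called higher and 9 lower (62.1% of all genes; median 0.001), and the largest changes were in Psmb9, an immunoproteasome subunit (0.418, adjusted p 4.1e-15), and Psme2, a proteasome activator subunit (0.374, adjusted p 1.31e-06). Psme2 (0.608) and Psmb9 (0.408) also led the 7 higher and 9 lower calls of the combined group against doxycycline (64.1% of all genes). Against dTAG-13 the combined group had 10 higher and 1 lower (20.4% of all genes), led by Nlrc5, the class I transactivator (0.234, adjusted p 4.66e-06), and Psmb9 (0.234, adjusted p 1.13e-07). Nlrc5 was also higher with doxycycline against control (0.254, adjusted p 2.04e-07), and it was called lower with dTAG-13 against control (-0.265, adjusted p 3.11e-08) and in the combined group against doxycycline (-0.285, adjusted p 3.97e-09). Against control the combined group had 10 higher and 4 lower (66.3% of all genes), led by Psmb9 (0.652) and Psme2 (0.514). The interaction was called for 12 of the 20 (22.9% of all genes), 5 positive and 7 negative, with Rfx5, a subunit of the RFX complex, at -0.309 and Psmb10, another immunoproteasome subunit, at 0.252.

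Among 31 other class I and class I-like genes, H2-Q8, H2-Q9, H2-L and H2-T9 had no row under those symbols in the counts. Whether their reads fell in the rows of other genes was not tested. Of the 31, 15 passed the filter: H2-Q1, H2-Q10, H2-T10, H2-T24, Mr1, Cd1d1, Fcgrt, Hfe, Procr, Raet1d, Raet1e, Ulbp1, Gm8909, Gm7030 and Gm11127. With doxycycline 2 were called higher and 1 lower (33.5% of all genes were called), with dTAG-13 7 higher and none lower (62.1%), and in the combined group against control 7 higher and 1 lower (66.3%). Against doxycycline the combined group had 5 higher and 2 lower (64.1% of all genes), against dTAG-13 2 higher and 2 lower (20.4%), and the interaction was called negative for 2 and positive for none (22.9%). Mr1, which presents vitamin metabolites to MAIT cells, went from 7.49 CPM in control to 10.7 with doxycycline (log2 0.511, edgeR adjusted p 6.11e-06) and 10.2 with dTAG-13 (log2 0.448, adjusted p 1.52e-05). The class II chains were near absent: over all 12 libraries H2-Aa had 2 reads, H2-Ab1 7, H2-Eb1 3, and their transactivator Ciita 21, against 496141 for H2-K1. Of the 7 class II genes only H2-DMa and H2-DMb1, which edit class II peptides, passed the filter. H2-DMb1 was called higher in the comparisons of dTAG-13 with control (0.348), of the combined group with doxycycline (0.275) and of the combined group with control (0.374).

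As a description across the 12 libraries, with no test, the log2 CPM of H2-K1 was most like that of H2-D1 (Pearson r = 0.895), Emc10 (0.881) and Borcs8 (0.88) among the 9105 genes that averaged 10 CPM or more. H2-D1 was most like Chmp6 (0.948), Bcl7c (0.935) and Emc10 (0.933), and B2m was most like Tnfrsf1b (0.967), Rai14 (0.944) and Vdr (0.943). No class I heavy chain was among the 3 genes most like B2m. Among the members, H2-T22 and H2-T23 had r = 0.933 and H2-Q7 and H2-M3 had 0.877, while H2-T22 and H2-Q6 had -0.888 and B2m and H2-D1 had -0.768. The 12 points share 4 cultures and the same scaling.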

How the data were processed

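RNA from 12 libraries in 4 groups was analysed. A single table of raw read counts for 27179 Entrez IDs, not normalized, was deposited. Per the file headers reads were aligned with Subread, and the submitters' processing notes name bcl2fastq 2.17, featureCounts and mm10; for the other versions, the strand setting and the treatment of multi-mapping reads, nothing is given in the sources used here. Symbols came from RefSeq (GRCm38.p6) and GENCODE M21 for 25293 IDs. Lengths were GENCODE exon unions; the planned RefSeq lengths were not used.

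Counts were tested in R 4.3.3 with edgeR 4.0.16: filterByExpr (12910 genes), TMM factors of 0.9647 to 1.0349, 1 mean per group over all libraries, the robust quasi-likelihood F test (two-sided), and Benjamini-Hochberg adjustment over all tested genes within each of 6 contrasts. CPM uses TMM-scaled library sizes. The fit was tested on simulated counts shaped like these libraries.

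The members, gene lists and tests were chosen with earlier results of these data known. The naming rule was every member, the 2 called pathway genes of largest absolute log2 fold change per contrast, every tested class I relative, and the 3 genes most correlated with H2-K1, H2-D1 and B2m; other genes with values (H2-DMb1, class II chains, cell type markers) came from the lists. A pathway gene that this rule named is not reported here. Alternatives were RLE factors, library size only, DESeq2 1.42.0, no filter, 1 CPM in 3 libraries, a replicate block, only the groups compared, a length and GC correction (splines of 5 degrees of freedom, 11745 genes) and leaving out each library. The longest protein-coding transcript as length was added after the data were seen. Stretches shared between transcripts and motifs were found in Python 3.11.15 with Biopython 1.88.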

Additional observations from a re-analysis of the deposited data

Results flagged for a closer look

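The dTAG-13 effect differed with and without doxycycline for 2 of the 9 members, by the edgeR interaction test. That test called 22.9% of all genes, so the share of members called was near that of all genes. For H2-Q4 the difference was 0.121 on the log2 scale (adjusted p 0.00503): its level was lower with doxycycline alone than in the other 3 groups. With scaling by library size only the H2-Q4 difference was 0.05 and not called (adjusted p 0.275). For H2-M3 it was -0.297 (adjusted p 0.00547): dTAG-13 alone raised it to 40.2 ± 0.471 CPM from 26.3 ± 1.89, and the combined group reached 38.5 ± 3.77 from 31.1 ± 0.449 with doxycycline. Groups of 3 libraries are too small for a test of single outlying libraries.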

How the results depend on the processing

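Across 8 settings, 375 of 423 member results kept their direction and side of the threshold, 15 lost a call, 17 gained one and 16 changed sign. Of the 16, 3 were called after the change: B2m after the length and GC correction, in dTAG-13 against control (-0.478) and in the combined group against control (-0.467), and H2-Q4 in dTAG-13 against control with scaling by library size only (0.059). The other 13 were called on neither side. With library size only, dTAG-13 against control became 0.046 for H2-K1 and 0.072 for H2-D1, and the combined group against control 0.02 for H2-K1, 0.044 for H2-D1 and 0.033 for H2-Q4. With that scaling the combined group against dTAG-13 became -0.025, -0.028 and -0.026 for the same 3 genes, and the H2-Q7 interaction -0.035. With the length and GC correction H2-K1 became -0.077 against doxycycline and -0.02 against dTAG-13 in the combined group, H2-D1 -0.01 against dTAG-13, and the H2-T22 interaction 0.005. The cause was not tested for any of the 16.

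Of 648 results with 1 library left out, 587 kept direction and call, 30 lost a call, 18 gained one and 13 changed sign, none of the 13 being called after the change. The values of the results concerned ran, in dTAG-13 against control, from -0.07 to 0.001 for H2-D1 and from -0.01 to 0.063 for B2m. In the combined group they ran from -0.002 to 0.051 for H2-K1 against doxycycline and from -0.062 to 0.009 for H2-D1 against control. Against dTAG-13 they ran from -0.005 to 0.034 for H2-K1, -0.006 to 0.025 for H2-D1, -0.005 to 0.021 for H2-Q4 and -0.125 to 0.017 for H2-M3. The H2-T22 interaction ran from -0.047 to 0.005.

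The number of members called for the combined group against dTAG-13 was 3 with library size only (23.7% of all genes called) and 3 to 5 on leaving out single libraries (15.2% to 21.6%). The interaction called 4 members without a filter (15.3% of the 19206 genes then tested). It called 2 to 6 without single libraries (18.1% to 23.2% of all genes), with 6 on leaving out control replicate 3 (23.2%). dTAG-13 against control called 5 to 9 members without single libraries (57.3% to 61.8% of all genes), with 9 on leaving out control replicate 3 (58.1%). Scaling by library size only changed the split of all genes called higher and lower from 1917 and 2414 to 2546 and 1607 with doxycycline, from 3877 and 4144 to 5256 and 3115 with dTAG-13, from 1386 and 1244 to 926 and 2132 for the combined group against dTAG-13, and from 1705 and 1245 to 818 and 2424 for the interaction. The length and GC correction moved the split with doxycycline to 1544 and 2998 and that of the interaction to 1969 and 892.

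With the replicate block, H2-Q7 lost its doxycycline call (0.059, adjusted p 0.0618) and H2-D1 gained one in the combined group against doxycycline (0.075, adjusted p 0.0173). The numbers did not pair the libraries: deviations of same-numbered libraries correlated at -0.116 to 0.098 (18 pairs), and those of other numbers at -0.099 to 0.137 (36 pairs). Depth limits H2-T23 most, with 86 to 239 reads a library.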
